A study of Mus musculus with 30 samples.

Results

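The IL-4 and IL-13 receptor genes are described here in mouse CD11b+ myeloid cells from tumors, spleens, bone marrow and culture. The set was fixed by name as Il4ra, Il13ra1, Il2rg and Stat6, and each gene was read from its brightest probe set, the one with the highest mean over all 30 arrays, among probe sets annotated with 1 gene symbol. Of these 4 genes 3 had such a probe set, against 18194 genes in all, and Il2rg was not analysed here. Il4ra lies on chromosome 7 (125552271 to 125579474), Il13ra1 on chromosome X (36112108 to 36171262) and Stat6 on chromosome 10 (127642955 to 127660987) in the mouse build GRCm38.p6. The probe sets used were 1423996_a_at for Il4ra, 1427165_at for Il13ra1 and 1426353_at for Stat6.

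The study profiled RNA from CD11b+ cells enriched with magnetic beads on Affymetrix MOE430 2.0 arrays, with 10 groups of 3 arrays. The 5 tumor-bearing groups were set against the healthy spleen of their strain. In BALB/c mice these were spleen and tumor infiltrate of C26-GM bearers and tumor infiltrate of 4T1 bearers, with healthy BALB/c spleen beside them. In C57BL/6 mice they were the infiltrates of EL-4 and MCA203 tumors, with healthy C57BL/6 spleen beside them. A further pair came from BALB/c bone marrow cultured for 4 days with GM-CSF plus IL-6 or with GM-CSF plus G-CSF, set against CD11b+ cells of fresh BALB/c marrow. C26-GM is a colon carcinoma line made to release GM-CSF, 4T1 a mammary carcinoma line, EL-4 a T cell lymphoma line and MCA203 a fibrosarcoma line. Age, sex, tumor size and the number of mice per array are not given in the labels. Neither is whether the 3 arrays of a group hold separate mice or cultures, so the p-values measure only the spread between these arrays. Tumor infiltrates had only spleen to be set against, so tumor and organ cannot be told apart. The arrays taken as healthy C57BL/6 spleen carry that strain in their titles and strain field, while their source field names BALB/c.

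IL-4 signals through the alpha chain encoded by Il4ra, which pairs either with the common gamma chain encoded by Il2rg (the type I receptor) or with the IL-13 binding chain encoded by Il13ra1 (the type II receptor). IL-13 uses the type II receptor. Both receptors act through JAK kinases on the transcription factor STAT6, which in mouse macrophages turns on arginase and other genes of alternative activation. In tumor-bearing mice the IL-4 receptor alpha chain has served as a marker of suppressive myeloid cells.

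Il4ra and Il13ra1 were the receptor genes called in the tumor comparisons, and the 250 bases before their annotated starts are given here so that both can be read side by side. They are credited to RefSeq, build GRCm38.p6, plus strand, and capitals mark CpG dinucleotides. The Il4ra stretch is chr7:125552021-125552270 and the Il13ra1 stretch is chrX:36111858-36112107.
Il4ra: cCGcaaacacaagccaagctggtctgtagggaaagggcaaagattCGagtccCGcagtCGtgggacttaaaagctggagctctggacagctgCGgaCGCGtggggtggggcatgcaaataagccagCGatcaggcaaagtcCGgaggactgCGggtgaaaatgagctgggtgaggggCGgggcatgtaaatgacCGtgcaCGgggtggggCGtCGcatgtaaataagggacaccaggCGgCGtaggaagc
Il13ra1: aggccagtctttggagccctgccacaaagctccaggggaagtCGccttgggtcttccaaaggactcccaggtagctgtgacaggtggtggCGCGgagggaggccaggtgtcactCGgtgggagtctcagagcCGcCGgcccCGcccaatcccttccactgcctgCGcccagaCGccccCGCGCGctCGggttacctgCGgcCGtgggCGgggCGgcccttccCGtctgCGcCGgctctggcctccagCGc
The Il4ra stretch held 17 CpG dinucleotides, a number reached by 23.5% of all promoters in the table, and the Il13ra1 stretch held 21, reached by 16.3%. The Stat6 stretch held 6, which is also the median over all promoters. TTCNNNNGAA, with the spacing known for STAT6, was searched on both strands of the 300 bases around each start, as were TTCNNNGAA for other STATs and TTGCNNAA for C/EBP factors. The motifs can overlap one another. They occurred in 6.95%, 8.3% and 10.8% of 32851 promoters, and 0 matches lay in the windows of Il4ra, Il13ra1 and Stat6.

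Values on the deposited log2 scale ran from 1.68 to 14.51, so a difference of 1 is a 2-fold change. A gene was called at a Benjamini-Hochberg adjusted p under 0.05 in limma together with at least a 2-fold change. The label of the sort was borne by Itgam, the gene of CD11b, at 9.15 to 11.61, and by Ptprc, the leukocyte antigen CD45, at 11.53 to 13.17 on all 30 arrays. Correlations between arrays of 1 group lay between 0.941 and 0.995. The third C26-GM tumor array stood apart, with an actin 3' minus 5' difference of 2.42 against 0.01 to 0.68 on the other 29 arrays. Values of all probe sets spread less (SD 1.96 to 1.98) on replicates 1 and 2 of GM-CSF+IL-6 and replicates 1 and 3 of GM-CSF+G-CSF than on the other culture arrays (2.26 and 2.23). The 6 C26-GM arrays also differed from the other 24 in sex-linked RNAs, with Xist at 5.15 to 6.47 against 10.06 to 11.12 and the Y-linked Eif2s3y at 8.11 to 8.95 against 2.16 to 2.70. The labels give no sex. For every gene compared between C26-GM and other arrays, this difference and the C26-GM model therefore cannot be told apart.

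Il4ra, the chain shared by both receptors, was higher in all 5 tumor-bearing groups than in the healthy spleen of the strain. In C26-GM tumors its values were 9.53, 9.46 and 7.59, and in C26-GM spleens 8.76, 8.49 and 7.90, against 7.08, 6.73 and 6.98 in healthy BALB/c spleens. Every C26-GM array lay above every healthy array, and the third array of each C26-GM group was the lowest of its group. Il4ra rose by 1.45 ± 0.31 (SE) in C26-GM spleens (2.74-fold, adjusted p = 0.00153, limma), a comparison in which 2.32% of all genes rose. In C26-GM tumors it rose by 1.93 ± 0.31 (3.81-fold, adjusted p = 2.57e-05), where 4.26% of all genes rose. Without the third C26-GM tumor array the rise in the tumor was 2.57 (adjusted p = 9.08e-10). In bulk RNA, a change in the number of expressing cells and a change in RNA per cell cannot be told apart.

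The 4T1 infiltrates gave the tightest Il4ra values of the tumor groups, 8.91, 8.80 and 8.80, against the same healthy BALB/c spleens. The rise was 1.90 ± 0.31 (3.74-fold, adjusted p = 2.77e-05, limma), beside 6.83% of all genes rising. Il4ra in 4T1 and C26-GM tumors differed by -0.03 ± 0.31 (adjusted p = 0.957), where 12.9% of all genes were called in either direction. Without the third C26-GM tumor array that difference was -0.66 (adjusted p = 0.0223), which is under 2-fold. Within the C26-GM model, tumor minus spleen was 0.48 ± 0.31 (adjusted p = 0.402), where 6.16% of all genes were called. Leaving out the third tumor array made it 1.11 (adjusted p = 0.000602), which passed both thresholds, and leaving out the third array of both C26-GM groups made it 0.87 (adjusted p = 0.00516), which did not. The call between C26-GM tumor and spleen thus rested on which arrays were kept.

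EL-4 infiltrates had Il4ra values of 8.46, 8.96 and 8.25, and MCA203 infiltrates had 8.52, 8.12 and 8.38, against 7.49, 6.86 and 7.24 in healthy C57BL/6 spleens. Both tumor groups lay wholly above the spleens. Il4ra rose by 1.36 ± 0.31 in EL-4 tumors (2.56-fold, adjusted p = 0.00159, limma), where 6.42% of all genes rose. The rise in MCA203 tumors was 1.14 ± 0.31 (2.21-fold, adjusted p = 0.00751), where 5.01% of all genes rose. Without the second healthy C57BL/6 array, the lowest of the 3, the MCA203 change was 0.97 (adjusted p = 0.0552) and was not called. EL-4 and MCA203 infiltrates differed by 0.22 ± 0.31 (adjusted p = 0.69). The mean tumor effect on Il4ra in C57BL/6 minus that in BALB/c was -0.67 ± 0.38 (adjusted p = 0.419, 4.93% of all genes called), and -0.98 (adjusted p = 0.00807), just under 2-fold, without the third C26-GM tumor array.

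In culture Il4ra read highest with GM-CSF+G-CSF on the probe set used. GM-CSF+G-CSF cultures had 8.10, 8.06 and 8.25 and GM-CSF+IL-6 cultures 7.65, 7.45 and 7.66, against 6.95, 6.97 and 6.99 in fresh marrow. The 3 groups did not overlap on this probe set. On another, 1421034_a_at, the cultures overlapped, with 7.01, 7.72 and 7.16 for GM-CSF+G-CSF and 6.75, 6.61 and 7.25 for GM-CSF+IL-6. Il4ra rose by 1.17 ± 0.31 with GM-CSF+G-CSF (2.25-fold, adjusted p = 0.00476, limma), beside 4.48% of all genes rising and 13.9% called in either direction. With GM-CSF+IL-6 the change was 0.62 ± 0.31 (adjusted p = 0.116), where 5% of all genes rose and 14.1% were called, so Il4ra was not called there. The direct comparison, GM-CSF+IL-6 minus GM-CSF+G-CSF, gave -0.55 ± 0.31 (95% interval -1.19 to 0.09, adjusted p = 0.783), in which 0.654% of all genes were called. On the 4 arrays of small spread alone the GM-CSF+G-CSF change was 1.21 (adjusted p = 0.00491), and on its 1 wide array 1.09 (adjusted p = 0.103), a single array assumed to vary like the other groups.

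Ordered by group mean, Il4ra ran from C26-GM tumors (8.86 ± 1.10, SD, n = 3) and 4T1 tumors (8.84 ± 0.06) through EL-4 tumors (8.56 ± 0.36), C26-GM spleens (8.38 ± 0.44) and MCA203 tumors (8.34 ± 0.20). GM-CSF+G-CSF cultures (8.14 ± 0.10) and GM-CSF+IL-6 cultures (7.59 ± 0.12) came next, and then healthy C57BL/6 spleens (7.20 ± 0.32), fresh marrow (6.97 ± 0.02) and healthy BALB/c spleens (6.93 ± 0.18). It was called in 6 of 14 comparisons. Of neighbours in this order, the 2 cultures alone had arrays that did not overlap on the probe set used. Fresh marrow and healthy BALB/c spleen differed by 0.04 ± 0.31 in Il4ra (adjusted p = 0.951), and the 2 strains' healthy spleens by 0.27 ± 0.31 (C57BL/6 minus BALB/c, adjusted p = 1). The spread of group means was 1.93, which placed Il4ra at percentile 81.9 of all genes, and its pooled SD within groups was 0.42 against a median of 0.26 over all genes.

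**Figure D1:**
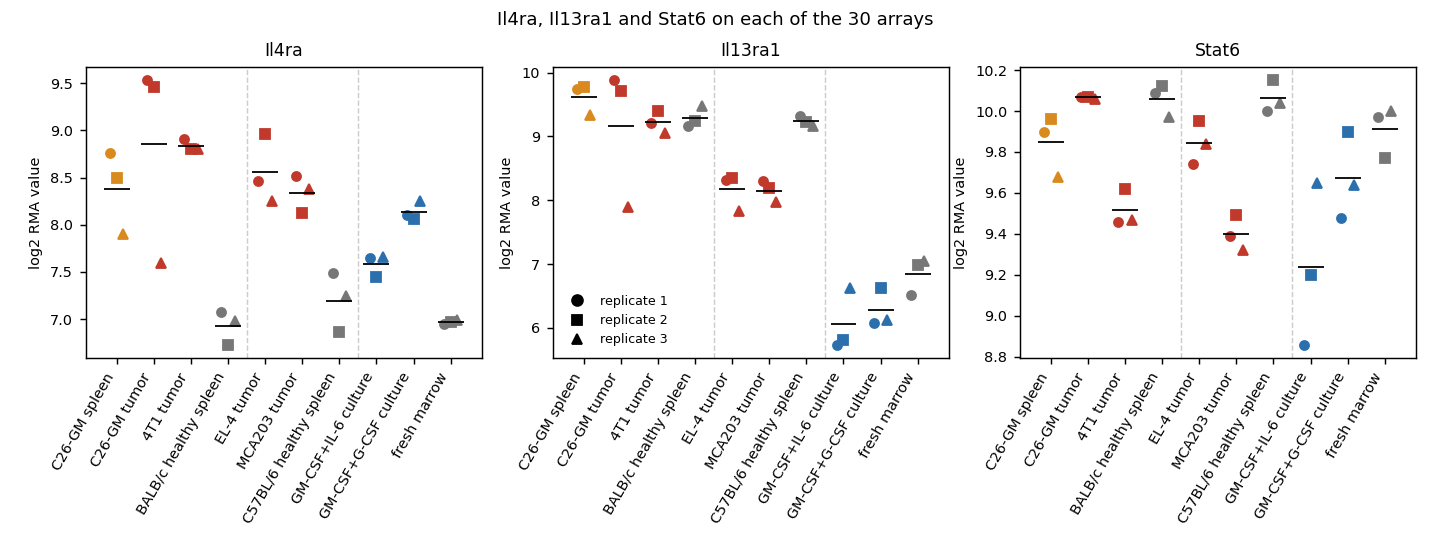
Log2 RMA values of Il4ra, Il13ra1 and Stat6 (vertical axes) in the 10 groups (horizontal axes), 1 point per array with its replicate number as the marker shape and the group mean as a bar. Red marks tumor infiltrates, orange C26-GM spleens, blue cultures and grey healthy spleen or fresh marrow; Il4ra in the 5 tumor-bearing groups lies above its healthy spleens, Il13ra1 is lowest in marrow and cultures, and Stat6 spans 0.83 between its group means.

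Il13ra1, the chain that makes the type II receptor with Il4ra, was called in both C57BL/6 tumors and in 0 of the 3 BALB/c comparisons. In BALB/c its values were 9.88, 9.71 and 7.89 in C26-GM tumors, 9.75, 9.78 and 9.33 in C26-GM spleens and 9.21, 9.40 and 9.06 in 4T1 tumors, against 9.16, 9.25 and 9.48 in healthy spleens. All of these overlapped the healthy spleens, and the third C26-GM tumor array was the one far below its group. The changes were -0.14 ± 0.32 in C26-GM tumors (95% interval -0.80 to 0.53, adjusted p = 0.788, limma), 0.33 ± 0.32 in C26-GM spleens (adjusted p = 0.594) and -0.07 ± 0.32 in 4T1 tumors (-0.74 to 0.59, adjusted p = 0.944). Called in either direction were 11.4%, 6.14% and 12.3% of all genes in these comparisons. Without the third C26-GM tumor array the change in that tumor was 0.50 (adjusted p = 0.143).

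In C57BL/6 tumors Il13ra1 was lower than in spleen. EL-4 infiltrates had 8.32, 8.35 and 7.84 and MCA203 infiltrates 8.30, 8.19 and 7.97, against 9.32, 9.22 and 9.17 in healthy C57BL/6 spleens. No tumor array reached the lowest spleen array. Il13ra1 fell by 1.07 ± 0.32 in EL-4 tumors (2.10-fold, adjusted p = 0.0147, limma) and by 1.09 ± 0.32 in MCA203 tumors (2.13-fold, adjusted p = 0.0139), where 4.4% and 5.42% of all genes fell. Both calls lay near the 2-fold threshold, and each was lost when the third array of its tumor group was left out (-0.90, adjusted p = 0.0803, in EL-4 and -0.99, adjusted p = 0.0595, in MCA203). EL-4 and MCA203 differed by 0.02 ± 0.32 (adjusted p = 0.978, 5.28% of all genes called). Members called were thus 2 of 3 in EL-4 and 2 of 3 in MCA203 tumors (10.8% and 10.4% of all genes called), with Il4ra up and Il13ra1 down, and 1 of 3 in each BALB/c comparison, with Il4ra up.

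The tumor effects in the strains were compared in a single contrast, named the strain difference in this text. The mean Il13ra1 change in C57BL/6 tumors minus that in BALB/c tumors was -0.98 ± 0.40 (adjusted p = 0.165, limma), which was not called. It was -1.29 without the third C26-GM tumor array (adjusted p = 0.0015), a called difference. Il13ra1 is X-linked, and on the C26-GM arrays Xist and Eif2s3y differed from all others as given above, so for that model sex-linked RNA and tumor cannot be told apart. Healthy spleens of the strains differed by -0.06 ± 0.32 in Il13ra1 (C57BL/6 minus BALB/c, adjusted p = 1, 1.4% of all genes called). No tumor line occurred in both strains, so in the strain difference strain and tumor line cannot be told apart.

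Il13ra1 differed most between marrow and spleen among the 14 comparisons. Fresh marrow had 6.52, 6.98 and 7.05, against 9.16, 9.25 and 9.48 in healthy BALB/c spleen, with a clear gap between the groups. The Il13ra1 difference, fresh marrow minus spleen, was -2.45 ± 0.32 (5.45-fold lower, adjusted p = 9.91e-07, limma), where 13.3% of all genes were called and 7.49% were called lower. In cultures the values were 5.74, 5.81 and 6.63 with GM-CSF+IL-6 and 6.08, 6.63 and 6.13 with GM-CSF+G-CSF, and both ranges overlapped fresh marrow. The changes were -0.79 ± 0.32 with GM-CSF+IL-6 (adjusted p = 0.0552) and -0.57 ± 0.32 with GM-CSF+G-CSF (adjusted p = 0.157), where 9.07% and 9.37% of all genes fell. For GM-CSF+IL-6 this depended on the arrays kept. On its 2 arrays of small spread the change was -1.07 (adjusted p = 0.00758), and on its wide array alone, a single array assumed to vary like the other groups, it was -0.22 (adjusted p = 0.797).

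By group mean Il13ra1 ran from C26-GM spleens (9.62 ± 0.25, SD, n = 3), healthy BALB/c spleens (9.30 ± 0.16), healthy C57BL/6 spleens (9.24 ± 0.07), 4T1 tumors (9.22 ± 0.17) and C26-GM tumors (9.16 ± 1.10) to EL-4 tumors (8.17 ± 0.29) and MCA203 tumors (8.15 ± 0.17). Fresh marrow (6.85 ± 0.29), GM-CSF+G-CSF cultures (6.28 ± 0.30) and GM-CSF+IL-6 cultures (6.06 ± 0.49) closed the order. On the probe set used, MCA203 tumors and fresh marrow were the only neighbours with no overlap of arrays. C26-GM and EL-4 tumors (7.84 to 8.35) overlapped there only through replicate 3 of C26-GM tumors, at 7.89 beside 9.88 and 9.71. On each other probe set C26-GM tumors had the highest group mean, at 9.45 (1451775_s_at), 9.39 (1454783_at), 9.57 (1427164_at) and 4.62 (1425625_at). The place of C26-GM tumors in this order thus depended on the probe set. Group means of Il13ra1 spanned 3.56 on the probe set used, at percentile 95.5 of all genes, with a pooled SD within groups of 0.43.

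Both receptor chains had further probe sets. Il4ra had 3, and probe set 1421034_a_at gave changes of 1.54 in C26-GM spleens, 2.5 in C26-GM tumors, 1.90 in 4T1, 1.37 in EL-4 and 1.26 in MCA203, each of which passed both thresholds. On it the third C26-GM tumor array read 8.95 beside 9.34 and 9.26, closer to its group than on the probe set used. With GM-CSF+G-CSF it gave 0.84 (adjusted p = 0.000571, limma), under 2-fold. The dim probe set 1447858_x_at, with a mean of 5.13, gave between 0.20 and 0.72 in the 6 comparisons in which Il4ra was called, and no call.

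Il13ra1 had 5 probe sets, which disagreed in C26-GM tumors. Probe set 1427164_at read 9.56, 9.55 and 9.59 in C26-GM tumors, against 8.37, 8.46 and 8.69 in healthy BALB/c spleens. On it Il13ra1 was 1.06 higher in the tumors (adjusted p = 0.00435, limma), a called rise, where the probe set used gave -0.14. The remaining probe sets gave 0.38 to 0.62 and were not called. In EL-4 tumors 1427164_at gave -1.01, 1454783_at -0.92 and 1451775_s_at -0.75, and in MCA203 tumors they gave -0.83, -1.20 and -0.93, so that all 3 were lower while the 2-fold threshold divided them. The dim probe set 1425625_at, with a mean of 4.12, gave -0.17 and -0.03. For the strain difference these 3 brighter probe sets gave -1.58, -1.30 and -1.28 (adjusted p = 0.00236, 0.027 and 0.0089), all past both thresholds.

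**Figure D2:**
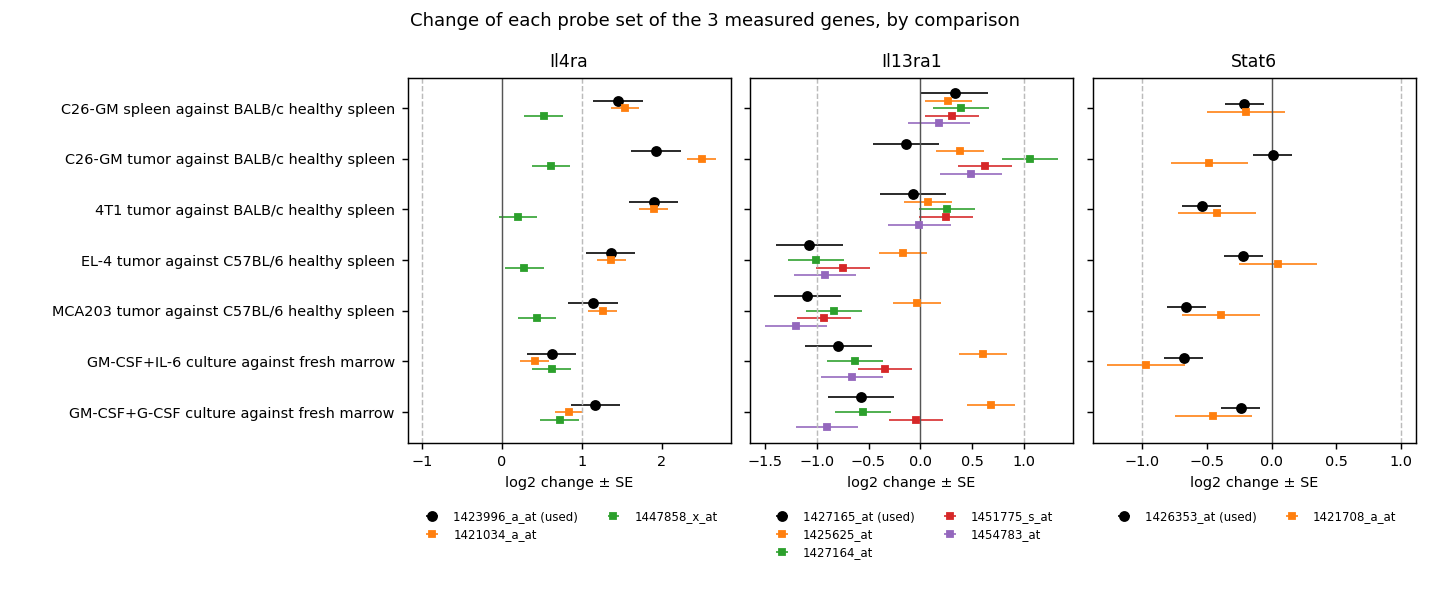
Log2 change with its standard error (horizontal axes) for every probe set of Il4ra, Il13ra1 and Stat6 in 7 comparisons (rows), with the probe set used in black and dashed lines at a 2-fold change. For Il4ra 1423996_a_at and 1421034_a_at lie past 2-fold in all 5 tumor-bearing groups, and for Il13ra1 the probe sets spread between -0.14 and 1.06 in C26-GM tumors.

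Stat6, the transcription factor downstream of both receptors, was not called in any comparison. Its values were 10.07, 10.07 and 10.06 in C26-GM tumors, 9.90, 9.96 and 9.68 in C26-GM spleens and 9.46, 9.62 and 9.47 in 4T1 tumors, against 10.09, 10.12 and 9.97 in healthy BALB/c spleens. The 4T1 arrays lay below all others of that strain's tumors and spleens. Stat6 in 4T1 tumors was lower by -0.54 ± 0.15 (1.46-fold, adjusted p = 0.00778, limma), which is under 2-fold and no call. In C26-GM tumors the difference was 0.01 ± 0.15 (adjusted p = 0.983) and in C26-GM spleens -0.21 ± 0.15 (adjusted p = 0.423). Set against C26-GM tumors, 4T1 tumors had -0.55 ± 0.15 (adjusted p = 0.00628), also under 2-fold.

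EL-4 infiltrates had Stat6 values of 9.74, 9.95 and 9.84 and MCA203 infiltrates 9.39, 9.49 and 9.32, against 10, 10.15 and 10.04 in healthy C57BL/6 spleens. The MCA203 group lay lowest, with a difference of -0.66 ± 0.15 (1.58-fold, adjusted p = 0.00149, limma), while EL-4 gave -0.22 ± 0.15 (adjusted p = 0.36). EL-4 minus MCA203 was 0.45 ± 0.15 (adjusted p = 0.0453). In culture Stat6 had 8.86, 9.20 and 9.65 with GM-CSF+IL-6 and 9.48, 9.90 and 9.64 with GM-CSF+G-CSF, against 9.97, 9.77 and 10 in fresh marrow. The GM-CSF+IL-6 arrays were spread widest of all groups for Stat6 and lay below fresh marrow, by -0.68 ± 0.15 (1.60-fold, adjusted p = 0.000862). That difference was -0.89 on the arrays of small spread and -0.27 (adjusted p = 0.203) on the wide array. With GM-CSF+G-CSF it was -0.24 ± 0.15 (adjusted p = 0.199).

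Stat6 was called in 0 of 14 comparisons, since no difference reached 2-fold, and its limma p lay under 0.05 in 5 of them after adjustment and in 6 before it. Its group means spanned 0.83, between C26-GM tumors (10.07 ± 0.01, SD, n = 3) and GM-CSF+IL-6 cultures (9.23 ± 0.40), at percentile 31.5 of all genes. Between these came both healthy spleens (10.06 ± 0.08 each), fresh marrow (9.91 ± 0.12), C26-GM spleens (9.85 ± 0.15), EL-4 tumors (9.85 ± 0.10), GM-CSF+G-CSF cultures (9.67 ± 0.21), 4T1 tumors (9.52 ± 0.09) and MCA203 tumors (9.40 ± 0.08). No neighbours in this order were free of overlap. The other probe set, 1421708_a_at, gave -0.97 with GM-CSF+IL-6 (adjusted p = 0.0145, limma). In 4T1 it gave -0.42 (adjusted p = 0.403) and in MCA203 -0.39 (adjusted p = 0.397). EL-4 minus MCA203 was 0.44 on it (adjusted p = 0.361) and 4T1 minus C26-GM tumors 0.06 (adjusted p = 0.897). The third C26-GM tumor array read 7.41 on it beside 9.07 and 8.97.

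Across the 10 group means the Pearson correlation was 0.243 for Il4ra and Il13ra1, -0.249 for Il4ra and Stat6 and 0.532 for Il13ra1 and Stat6. These values are descriptions and were taken on the probe sets used only. On those the third C26-GM tumor array read lowest of its group, at 7.59 for Il4ra and 7.89 for Il13ra1, and other probe sets can give other correlations. Among 10570 genes searched, those whose 10 group means were most like Il4ra's were the endocytic adaptor Dab2 (r = 0.950), the extracellular matrix protein Ecm1 (0.949), the metallothionein Mt2 (0.946), Fgd6 (0.936) and the cathepsin Ctsl (0.929). Il13ra1 was most like Ddit4 (0.975), Nae1 (0.966), Adamdec1 (0.955), Arfip1 (0.953) and the mannose receptor Mrc1 (0.953). Stat6 was most like the scaffold Iqgap1 (0.940), the kinases Mknk2 (0.935) and Mknk1 (0.931), Rmc1 (0.930) and Gga3 (0.930). These are the highest of many correlations over 10 points and share the same arrays.

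The ligand genes of Il4ra and Il13ra1 were dim. Il4, the gene of IL-4, fell by 1.87 ± 0.29 in C26-GM spleens (adjusted p = 3.79e-05, limma), by 1.45 ± 0.29 in C26-GM tumors and by 1.16 ± 0.29 in 4T1 tumors. Its group mean was 3.40 in C26-GM spleens and 5.27 in healthy BALB/c spleens. The median over all probe sets was 4.85 to 4.99 on the former arrays and 4.93 to 4.94 on the latter. Il4 was called in 4 of 14 comparisons, these 3 and fresh marrow, where it was lower than in healthy BALB/c spleen. Il13 and Il13ra2, the gene of the IL-13 decoy receptor, were called by limma in 0 of 14 comparisons, with an unadjusted p under 0.05 in 2 and 1 of them. Of 6 other receptor chains that pair with the common gamma chain, Il7r, the IL-7 receptor chain, rose by 1.73 ± 0.30 in C26-GM tumors, by 2.03 ± 0.30 in 4T1 and by 2.42 ± 0.30 in EL-4, and fell by 1.55 ± 0.30 in C26-GM spleens. Il2rb, which serves IL-2 and IL-15, rose by 2.48 ± 0.30 in EL-4 and by 2.98 ± 0.30 in MCA203 tumors.

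Among the 4 JAK kinases, which carry the signal of the Il4ra and Il13ra1 chains, Jak2 was the 1 that passed in both C57BL/6 tumors. It fell by 1.29 ± 0.17 in EL-4 (adjusted p = 1.75e-06, limma) and by 1.39 ± 0.17 in MCA203 tumors (adjusted p = 4.74e-07), and the strain difference in its tumor effect was -1.12 ± 0.21 (adjusted p = 0.000611). Jak2 was also called lower in fresh marrow than in healthy BALB/c spleen (-1.27 ± 0.17), and rose by 1.18 ± 0.17 with GM-CSF+IL-6. Jak3 rose by 1.20 ± 0.18 in EL-4 tumors, and Jak1 fell by 1.08 ± 0.26 with GM-CSF+IL-6. In the C26-GM spleens, C26-GM tumors and 4T1 tumors limma called 0 of the 4 kinases, with an unadjusted p under 0.05 for 1, 1 and 4 of them.

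Of 9 adaptors and PI3 kinase genes that the IL-4 receptor also engages, 1 rose in C26-GM spleens, 1 in C26-GM tumors, 1 in 4T1, 2 in EL-4 and 2 in MCA203, where 2.32%, 4.26%, 6.83%, 6.42% and 5.01% of all genes rose. The PI3 kinase subunit Pik3cd, named after its value was seen, was the 1 gene of this list that fell in these groups, by 1.36 ± 0.22 in 4T1 and by 1.02 ± 0.22 in MCA203. The insulin receptor substrate Irs1 rose by 3.13 ± 0.41 in 4T1, 1.75 ± 0.41 in EL-4 and 1.89 ± 0.41 in MCA203, its relative Irs2 by 1.80 ± 0.14 in C26-GM tumors, and the docking protein Dok2 by 1.59 ± 0.17 in C26-GM spleens, 2.60 ± 0.17 in EL-4 and 1.58 ± 0.17 in MCA203. Of 12 negative regulators, 3 rose in C26-GM spleens, 6 in C26-GM tumors, 4 in 4T1, 3 in EL-4 and 4 in MCA203, with 1 fall in 4T1 and 1 in MCA203. Cish, an inhibitor induced by cytokine receptors, rose by 4.46 ± 0.18 in C26-GM tumors, and Socs1, an inhibitor of JAKs, by 3.19 ± 0.34. In EL-4 tumors Rnf128 rose by 4.76 ± 0.38 and Socs1 by 2.44 ± 0.34. The median change of this list was 0.87 in C26-GM tumors against 0.11 over all genes, and between -0.12 and 0.38 in the other tumor-bearing groups.

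Of 5 other STAT genes measured, 3 fell with GM-CSF+IL-6 and 2 with GM-CSF+G-CSF, where 9.07% and 9.37% of all genes fell. Stat5b fell by 1.86 ± 0.23 and Stat3 by 1.41 ± 0.21 with GM-CSF+IL-6, and by 1.68 ± 0.23 and 1.19 ± 0.21 with GM-CSF+G-CSF. Of 4 STAT6 coactivators 3 fell with GM-CSF+IL-6 and 2 with GM-CSF+G-CSF, led by Ncoa1 at -1.69 ± 0.32 and -1.72 ± 0.32. In the 5 tumor-bearing groups limma called 0 of the coactivators, with an unadjusted p under 0.05 for between 1 and 2 of them in each. Stat4, which serves IL-12, fell by 2.53 ± 0.27 in C26-GM spleens, 2.46 ± 0.27 in C26-GM tumors and 1.62 ± 0.27 in 4T1 tumors.

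Of 25 genes known as STAT6 targets in mouse macrophages, 7 rose and 4 fell in C26-GM spleens, 10 rose and 6 fell in C26-GM tumors, and 12 rose and 6 fell in 4T1 tumors. In EL-4 tumors 13 rose and 2 fell, and in MCA203 tumors 7 rose and 5 fell. Their median changes were 0.30, 0.54, 0.66, 1.34 and 0.18 in that order, against 0.09, 0.11, -0.01, 0.02 and 0.14 over all genes. Of all genes 3.83%, 7.13% and 5.44% fell in the 3 BALB/c comparisons, beside the shares given above. Arg1, the gene of arginase 1, rose by 6.78 ± 0.35 in C26-GM tumors, 8.92 ± 0.35 in 4T1, 8.13 ± 0.35 in EL-4 and 6.81 ± 0.35 in MCA203. Other leading changes were those of the chemokine Ccl17 (3.51 ± 0.37) and the cadherin Cdh1 (3.40 ± 0.47) in C26-GM spleens, the cholesterol hydroxylase Ch25h in 4T1 (4.69 ± 0.22) and MCA203 (5.39 ± 0.22), the lectin Mgl2 in EL-4 (3.24 ± 0.33), and the chitinase-like Chil3 in MCA203 (-3.62 ± 0.23). Cdh1 also stands in the epithelial marker list given below, so its changes count in both lists. Many of these genes also answer to signals other than STAT6, and the list was not tested as a set.

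In culture 15 of the 25 target genes rose and 4 fell with GM-CSF+IL-6 (median 1.39, all genes 0.12), and 13 rose and 5 fell with GM-CSF+G-CSF (median 1.25, all genes 0.14). Of all genes 5% rose and 9.07% fell with GM-CSF+IL-6, and 4.48% rose and 9.37% fell with GM-CSF+G-CSF. Ccl17 led in both, at 6.95 ± 0.37 and 4.91 ± 0.37, beside Cdh1 at 6.06 ± 0.47 and 4.77 ± 0.47. Between the cultures 4 target genes were higher with GM-CSF+IL-6 and 0 lower, where 0.456% of all genes were higher. They were the resistin-like Retnla (3.08 ± 0.51), Mgl2 (2.18 ± 0.33), Ccl17 (2.04 ± 0.37) and Clec10a (1.28), the last named after its value was seen. Il4ra, in contrast, read lower in that culture, by -0.55, and was not called.

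**Figure D3:**
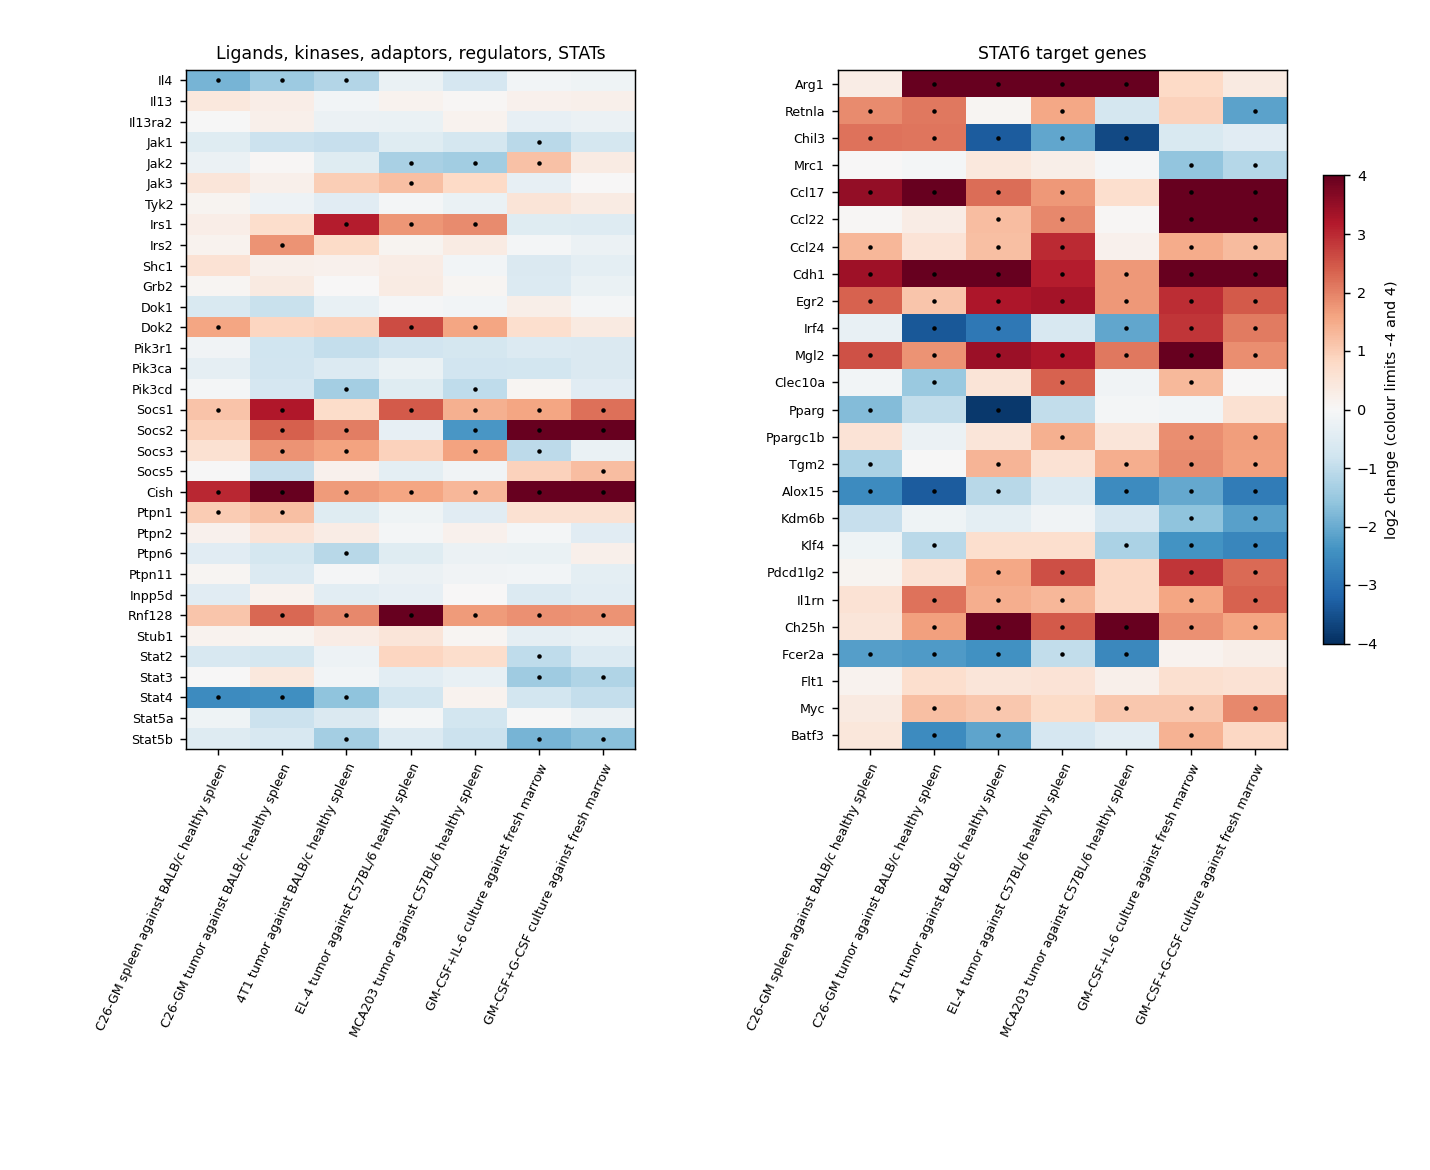
Log2 change (colour, limited to -4 and 4) of the measured ligand, kinase, adaptor, regulator and STAT genes (left) and of 25 STAT6 target genes (right) in 7 comparisons (columns), with a dot on each gene called. Il4 carries dots in the 3 BALB/c tumor-bearing groups, Jak2 is blue with a dot in EL-4 and MCA203, and Arg1 carries a dot in all 4 tumor infiltrates but not in C26-GM spleens.

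Markers of other cells moved beside Il4ra and Il13ra1. Of 11 T cell markers 7 rose and 0 fell in EL-4 tumors and 6 rose and 1 fell in MCA203 tumors, while 0 rose in BALB/c and 5 fell in C26-GM spleens, 6 in C26-GM tumors and 6 in 4T1. The log2 of their summed level was 11.49 to 11.79 in EL-4 and 11.37 to 11.80 in MCA203, against 9.72 to 9.89 in healthy C57BL/6 spleens. In BALB/c it was 9.32 to 10.37 in C26-GM spleens, 8.86 to 8.99 in C26-GM tumors and 8.56 to 8.71 in 4T1, against 10.10 to 10.17 in healthy spleens. Of all genes 2.32% rose and 3.83% fell in C26-GM spleens, 4.26% and 7.13% in C26-GM tumors, and 6.83% and 5.44% in 4T1. In EL-4 6.42% of all genes rose and 4.4% fell, and in MCA203 5.01% and 5.42%. Whether the T cell level bears on Il4ra or Il13ra1 was not tested.

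In each of the 5 tumor-bearing groups, where 3.83% to 7.13% of all genes fell, 8 of 9 measured B cell markers fell. Their summed level was 9.0 to 9.14 in C26-GM spleens, 8.62 to 8.75 in C26-GM tumors and 8.45 to 8.80 in 4T1, against 11.78 to 12.01 in healthy BALB/c spleens, and 10.68 to 10.80 in EL-4 and 9.26 to 9.49 in MCA203, against 12.41 to 12.78 in healthy C57BL/6 spleens. Of 7 measured NK cell markers 7 fell in C26-GM spleens, 7 in C26-GM tumors and 6 in 4T1, while 3 rose and 1 fell in EL-4 and 3 rose in MCA203. Fibroblast markers rose in 3 of 8 cases in C26-GM tumors, 6 in 4T1, 6 in EL-4 and 5 in MCA203, and epithelial markers in 1, 7, 7 and 3 of 8. Of all genes 4.26%, 6.83%, 6.42% and 5.01% rose in that order. In fresh marrow, where Il13ra1 was low, 8 of 9 B cell and 7 of 7 NK cell markers were lower than in healthy BALB/c spleen. Of all genes 7.49% were called lower in that comparison and 13.3% in either direction. Of 11 T cell markers 5 were lower there and 1 was higher. The summed T cell level, though, was higher in fresh marrow, at 11.02 to 11.3 against 10.1 to 10.17. Of 8 fibroblast markers 5 were higher in fresh marrow. Of 10 markers of mast cells, basophils and eosinophils, cells that can make IL-4, 4 fell in C26-GM spleens, 5 in C26-GM tumors, 5 in 4T1, 4 in EL-4 and 5 in MCA203, and 1 rose in C26-GM spleens, in C26-GM tumors and in EL-4. In each culture 5 of these 10 fell and 0 rose against fresh marrow, and in fresh marrow 4 were higher and 1 lower than in healthy BALB/c spleen. Of all genes 9.07% fell with GM-CSF+IL-6 and 9.37% with GM-CSF+G-CSF. Of 10 markers of CD11b+ myeloid cells, between 1 and 2 were called in each tumor-bearing group, where 6.14% to 12.3% of all genes were called. In fresh marrow against spleen 3 were called, where the share of all genes was 13.3%. The part of these other cells in the values of Il4ra, Il13ra1 and Stat6 was not tested.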

How the data were processed

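RNA of CD11b+ cells was measured on 30 arrays in 10 groups of 3, grouped by the labels' titles. The deposited table holds log2 RMA values per the labels and the submitters' processing notes, which name RMA without a version, and the background correction was not varied because the scanner files were not used. RMA is meant to give arrays a shared distribution, so a change is relative to all probe sets, and the number of arrays limits the precision. The deposited arrays still differed in distribution, with SDs from 1.96 to 2.28 and medians from 4.85 to 5.15. Of 45101 probe sets 34958 carried 1 gene symbol, 932 several and 9211 none. For each of the 18194 genes the brightest probe set on average was taken, and all 4 listed symbols matched RefSeq's gene table, from which locations come. The probe annotation can be old.

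From these values 1 limma model (R 4.3.3, limma 3.58.1) over all arrays gave 14 comparisons, with moderated tests, standard errors from 1 pooled spread per gene and Benjamini-Hochberg adjustment over all genes. Called genes had an adjusted p under 0.05 and at least a 2-fold change. The members, the 8 pathway lists (68 of 69 genes measured) and the marker lists were chosen with earlier results of these data known. Text names the members, their probe sets, up to 3 called genes with the largest change per list and comparison, and the 5 genes with the highest correlation of group means, among genes not under the 40th percentile of brightness. The log2 of a list's summed level adds the unlogged values of its markers.

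A planned within-array contrast of Il13ra1 with Il2rg and a search of protein motifs were not run, since Il2rg and protein sequences were not used here. Sequences come from RefSeq's promoter table (Python 3.11.15). On simulated data of the C26-GM spleen comparison with 200 of 18194 genes changed, the model recovered 196 with 0 false calls. Alternatives were housekeeping centring, repeated quantile normalisation, only the compared groups, array weights, no dim genes, other or averaged probe sets, another variance prior, other thresholds, a replicate block, leaving out each array, and, added after seeing the data, leaving out the third array of both C26-GM groups and splitting or modelling the culture arrays by spread.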

Additional observations from a re-analysis of the deposited data

How the results depend on the processing

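Of 288 changes of the 3 genes with 1 array left out, 282 stayed on their side of the thresholds, 3 fell short and 3 newly passed, and 14 changed sign, all without a call either way. Of 560 under the other alternatives 524 stayed on their side, 21 fell short and 14 newly passed, and 48 changed sign, of which 47 had no call either way. The remaining sign change was that of Il13ra1 in C26-GM tumors, which was 1.06 with probe set 1427164_at. An adjusted p under 0.05 in limma with the new sign was reached in 3 further cases, all Il13ra1 and under 2-fold, namely -0.80 in 4T1 against C26-GM tumors with 1427164_at, and 0.60 with GM-CSF+IL-6 and 0.68 with GM-CSF+G-CSF with the dim 1425625_at. The Il4ra calls in C26-GM spleens, C26-GM tumors, 4T1 and EL-4 held in each alternative run except the dim probe set 1447858_x_at. Counts of members called were as follows. The share of all genes called was taken under the main settings only, so these counts cannot be set against it. With no minimum fold change they were 2 in 4T1 tumors, 3 in MCA203 tumors and 1 each in 4T1 against C26-GM tumors, EL-4 against MCA203 tumors and GM-CSF+IL-6 cultures, Stat6 being the member added in each. At adjusted p under 0.01 they were 1 in EL-4 and 1 in MCA203. With the mean of all probe sets they were 1 in EL-4, 0 in MCA203, 0 with GM-CSF+G-CSF and 1 for the strain difference. The strain difference also gave 1, Il13ra1, with array weights, with housekeeping centring (-1.14, adjusted p = 0.0494) and without the third array of both C26-GM groups. GM-CSF+IL-6 cultures gave 1, Il13ra1, with array weights and on narrow arrays only, and GM-CSF+G-CSF gave 0 on wide arrays only, where it has 1 array. Leaving out 1 array gave 0 to 1 for C26-GM tumor against spleen, for GM-CSF+IL-6 and for the strain difference, and 1 to 2 for EL-4 and for MCA203. The causes were not tested.

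Housekeeping centring moved the median of all genes by -0.19 to 0.17. It turned the near-zero Il13ra1 change between 4T1 and C26-GM tumors to -0.05 and that between EL-4 and MCA203 tumors to -0.17, with no call. In 0 of 13 comparisons did every same-numbered pair correlate above 0.1 (range -0.85 to 0.788), and the samples were treated as unpaired. This does not settle whether arrays share mice, since C26-GM tumor and spleen pairs gave 0.367, 0.0634 and 0.47. A replicate block left the total of members called over the 14 comparisons at 9, as without it. Every group holds replicates 1, 2 and 3, so such a block cannot move a change, only its standard error and p-value.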
